A study of Mus musculus with 57 samples.

Results

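The transition of Taf12 mutant embryos from blastocyst to outgrowth was described from 7 single-embryo RNA sequencing libraries of the 57 in the series, chosen by their labels alone. They were 4 outgrowths labelled Taf12 MUT and 3 blastocysts labelled Taf12 MUT. Outgrowths had been blastocysts taken at embryonic day (E) 3.5 and grown singly for 72 h in medium with 10% fetal bovine serum, whereas the blastocysts were read at E3.5 without culture. For comparison, 4 outgrowths and 5 blastocysts labelled Taf12 WT (wild type) were handled in the same ways, and 3 outgrowths and 5 blastocysts labelled Taf12 HET entered 1 alternative setting. The series names the line a Taf12 knockout, but the allele, the strain and the litters are not described. Each library was a different embryo, so no embryo was measured at both stages, and p-values measure only the spread between these libraries. Genotype is taken from the labels, and MUT and WT below mean libraries so labelled. The comparison asks which genes differ between mutant outgrowths and mutant blastocysts, and where that change differs from the one in WT.

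A blastocyst consists of an outer epithelium, the trophectoderm, around an inner cell mass that holds the pluripotent epiblast and the primitive endoderm. On a culture dish the trophectoderm attaches, spreads and differentiates into trophoblast giant cells, which copy their DNA without dividing and secrete prolactin-family hormones (placental lactogens), while the inner cell mass grows on top. TAF12 is a subunit of TFIID, the general factor that binds core promoters for RNA polymerase II, and of the coactivator SAGA.

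Many of the genes with the largest log2 rise in mutants and no read in mutant blastocysts belonged to the prolactin family. The bases before their transcription starts are shown because the letters of a core promoter element are common to them. Of the RefSeq promoter table (GRCm38.p6), the 200 bases before the annotated start are printed 5′ to 3′ for 5 of these genes on chromosome 13. Capitals mark 3 motifs. The first is TATATA, the core of a TATA box, which the TATA-binding protein of TFIID contacts. Next comes GATAA on either strand, the core of sites for GATA factors. The last is TGANTCA on either strand, the core of sites for AP-1.
Prl3d1: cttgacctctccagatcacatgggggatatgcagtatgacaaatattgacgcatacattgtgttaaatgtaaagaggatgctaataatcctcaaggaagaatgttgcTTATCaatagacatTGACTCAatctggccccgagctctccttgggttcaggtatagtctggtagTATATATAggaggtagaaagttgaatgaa
Prl3d2: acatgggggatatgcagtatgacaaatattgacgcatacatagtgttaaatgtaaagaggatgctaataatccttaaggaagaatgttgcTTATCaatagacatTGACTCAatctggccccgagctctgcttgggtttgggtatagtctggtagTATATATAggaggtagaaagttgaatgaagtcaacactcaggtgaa
Prl7a1: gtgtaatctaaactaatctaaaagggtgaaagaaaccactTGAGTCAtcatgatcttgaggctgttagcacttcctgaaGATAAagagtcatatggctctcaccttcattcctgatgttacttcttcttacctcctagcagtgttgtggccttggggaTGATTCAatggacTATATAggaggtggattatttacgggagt
Prl2c5: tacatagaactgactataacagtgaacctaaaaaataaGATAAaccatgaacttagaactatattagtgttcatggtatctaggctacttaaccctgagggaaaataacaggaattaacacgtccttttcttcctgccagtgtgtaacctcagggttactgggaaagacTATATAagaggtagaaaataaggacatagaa
Prl5a1: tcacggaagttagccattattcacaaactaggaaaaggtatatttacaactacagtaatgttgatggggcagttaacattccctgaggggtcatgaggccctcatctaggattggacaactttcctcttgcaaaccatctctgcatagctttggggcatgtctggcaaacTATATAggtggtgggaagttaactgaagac
These windows lie at chr13:27093989-27094188, plus strand, at chr13:27121495-27121694, plus strand, at chr13:27642494-27642693, minus strand, at chr13:13182516-13182715, plus strand, and at chr13:28142284-28142483, plus strand. TATATA began 29 bases before the start of Prl3d1 and Prl7a1, 31 bases before that of Prl2c5 and 30 bases before that of Prl5a1. In Prl3d2 it began 46 bases before the annotated start, and the Prl3d1 and Prl3d2 promoters were 97.9% identical when shifted by 17 bases. The same letters were found in the windows of 6 other prolactin-family genes, Prl3d3, Prl2a1, Prl4a1, Prl7d1, Prl2c3 and Prl8a1. TATATA reads the same on both strands, and it stood in 4.57% of the windows of 27025 genes, in 1.61% of those of 8902 tested genes and in 10 of the 133 windows matched to genes turned on in mutants (7.52%), a set defined below. Those 10 were all the prolactin-family genes matched in that set, some of them near-identical copies, and 0 of the 123 other windows held it. The GATA motif was in 18.5%, 10.4% and 17.3% of these sets, and the AP-1 motif in 5.59%, 3.28% and 10.5%. Within the turned-on set the GATA motif stood in 7 of the 10 prolactin-family windows and in 16 of the 123 others, and the AP-1 motif in 4 and 10. A match is a stretch of letters, and binding was not measured.

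Recovered read numbers were 4.57 to 11.6 M (1e6 reads) in the MUT outgrowth libraries and 7.82 to 8.75 M in the MUT blastocyst libraries. MUT outgrowth 3 was the shallowest, at 4.57 M. MUT blastocyst 1 stood apart from the other two on the second principal component (15.4% of the variance, against 61.1% on the first, which separated the stages), with 11869 genes above 0 and 3.59% mitochondrial reads. Mitochondrial reads took 1.45 to 2.16% in MUT outgrowths and 1.97 to 3.59% in MUT blastocysts. Levels are FPKM (fragments per kilobase of transcript and per 1e6 reads), which the authors normalized separately by stage and which were rescaled together here. They are relative to the rest of a library and are compared within a gene, so a lower level can come from fewer cells of a type or from less RNA per cell, and these cannot be told apart. FPKM per recovered read differed widely between genes. In MUT outgrowths, Flnc averaged 1512 FPKM from 3810 reads and Plac1 610 FPKM from 177488. Levels therefore do not rank genes, and sums over a list weigh its members unequally. Changes are log2 differences of FPKM + 1, which understate the change of low genes, and for a gene with 0 reads in a group the change depends on the 1 FPKM added and is no bound. For such a gene the fold is a lower bound against 3 reads in each library of that group, and with 1 to 3 reads it comes from summed reads with an exact 95% interval, both for counting error only. WT values and differences between the genotypes come from 1 fit of 16 libraries, and a difference is the MUT log2 change minus the WT log2 change. A gene tested only because WT outgrowths expressed it could differ only toward a lower change in MUT. Stage cannot be told apart from anything else that set the outgrowth libraries apart as a group.

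The Taf12 transcript was not lower in libraries labelled MUT. It stood at 55.5, 51.6, 54.6 and 51.7 FPKM in the MUT outgrowths, against 61.4, 57.9 and 52.0 FPKM in the MUT blastocysts. The groups overlapped (log2 change −0.09, SE 0.19, limma adjusted p = 0.731). In WT it averaged 23.3 ± 3.91 FPKM in WT outgrowths and 41.1 ± 6.14 FPKM in WT blastocysts (SD, n = 4 and n = 5), lower in WT outgrowths (log2 change in WT −0.79, limma adjusted p = 0.00108). The transitions were not shown to differ (MUT minus WT difference 0.71, SE 0.24, limma adjusted p = 0.0802). Which part of the gene the allele removes is not given in the sources used here, so this level checks nothing about the protein. Among other subunits, Taf5 stood at 65.5, 75.8, 70.4 and 96.6 FPKM in the MUT outgrowths, against 73.3, 57.8 and 83.0 FPKM in the MUT blastocysts, and Taf13 at 131, 137, 118 and 99.0 FPKM in the MUT outgrowths, against 108, 73.7 and 97.6 FPKM in the MUT blastocysts. No change was called for either (limma adjusted p = 0.75 and 0.219), and 0 of the 14 tested TFIID subunit genes was called by limma in either direction.

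In mutants, 2165 of 11854 tested genes were higher in outgrowths (18.3%) and 1422 were lower (12%), together 30.3%, at a Benjamini-Hochberg adjusted p under 0.05. The median change over all tested genes was 0.23. With the FPKM as deposited it was 0.12 and the share of calls that were higher was 54.0%, against 60.4% after rescaling, so changes are read against that median. The median was 0.10 and the share 52.7% after rescaling by the 75th percentile. Without both MUT outgrowth 3 and MUT blastocyst 1, the counts were 1845 higher and 1098 lower. In WT, 3185 of 14117 genes were higher in outgrowths (22.6%) and 2275 were lower (16.1%). Where WT genes rose, 1743 of the 3185 also rose in MUT and 34 fell, with a median change of 1.19 in MUT and 1.70 in WT. Where WT genes fell, 1214 of the 2275 also fell in MUT and 43 rose, with a median change of −0.94 in MUT and −1.49 in WT. The difference between the transitions was called for 636 genes as higher in MUT (4.51%) and for 579 as lower (4.1%), 8.61% in all. Of those, 347 were WT-rising genes with a lower change in MUT and 310 were WT-falling genes with a higher change in MUT. These genes were chosen by their WT change, which the choice itself makes larger, so the medians are a description.

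**Figure D1:**
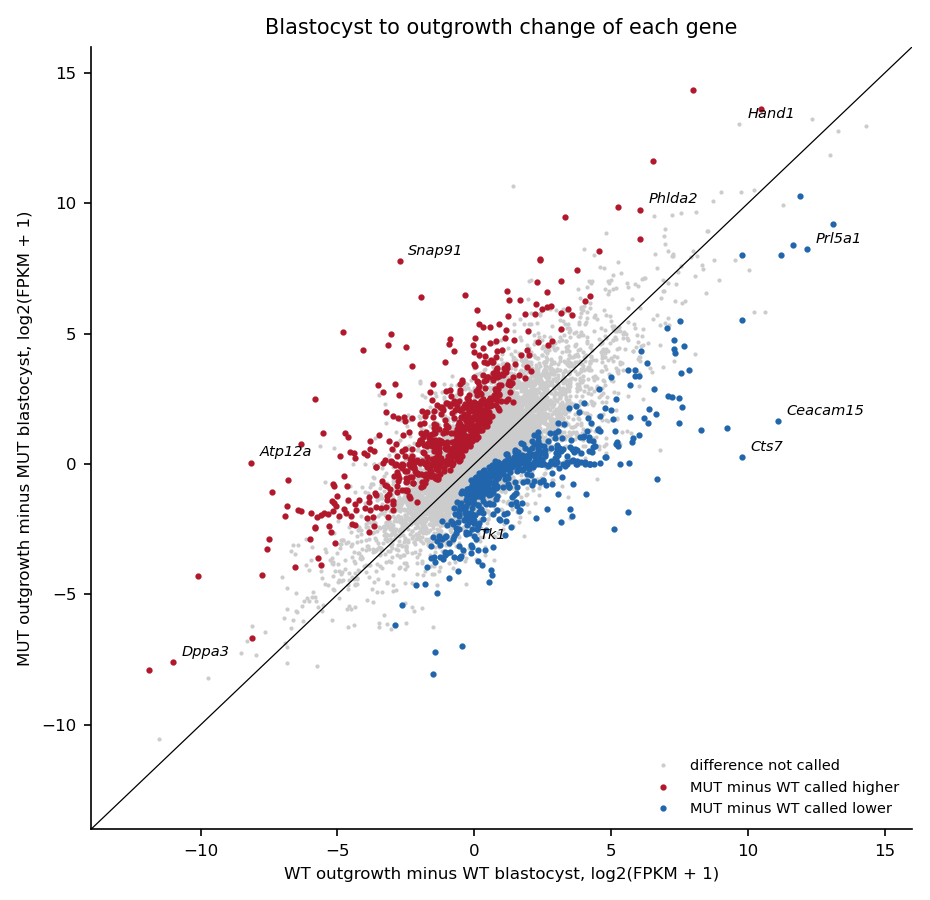
Change from blastocyst to outgrowth of each of 14117 genes, MUT on the vertical and WT on the horizontal axis (log2 of FPKM + 1), with the line of equal change. Red points (636) and blue points (579) are genes whose MUT change was called higher or lower than their WT change. Across genes the MUT and WT changes had a Pearson r of 0.71.

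Genes switched on from 0 reads were counted separately, as a description without a test. In MUT, 180 genes had 0 reads in all 3 blastocysts and FPKM 5 or more in all 4 outgrowths, and 134 of them also had FPKM 5 or more in every WT outgrowth. None of the 180 was at 0 reads in all WT outgrowths. Beside the lactogens they included Psg29, a pregnancy-specific glycoprotein gene, whose reads near-identical family members may share, with a mean of 1295 FPKM in MUT outgrowths and 3864 FPKM in WT outgrowths. Podxl, a sialomucin of apical membranes, averaged 349.9 FPKM in MUT outgrowths and 2950.5 FPKM in WT outgrowths. Anxa1, a phospholipid-binding protein, averaged 1479 FPKM in MUT outgrowths and 875 FPKM in WT outgrowths. Hpgd, which inactivates prostaglandins, averaged 981 FPKM in MUT outgrowths and 45.0 FPKM in WT outgrowths. By the same rule 141 genes were turned on in WT, and 7 of these had 0 reads in all MUT outgrowths. The numbers 180 and 141 are not like for like, because 0 reads in 3 blastocysts is easier to meet than in 5. Some of the 180 were expressed in WT blastocysts. Sgce averaged 72.9 FPKM there, and Nav3 averaged 46.9 FPKM in WT blastocysts and 46.3 FPKM in WT outgrowths. Of the 7 genes, the means in WT outgrowths follow. These 7 were Acvrl1 and Dll1, which encode a BMP-family receptor and a Notch ligand, Vdr, the vitamin D receptor, and Rgs17, Tgfb1i1, Ripor2 and Galnt12, at means of 17.8, 16.4, 17.2, 8.66, 9.76, 19.9 and 12.6 FPKM in WT outgrowths. Switched off to 0 reads in all 4 MUT outgrowths, from FPKM 5 or more in all 3 MUT blastocysts, were 34 genes, of which 9 also had 0 reads in every WT outgrowth and 3 (Esrrb, Plbd1 and the predicted gene Gm21060) had FPKM 5 or more in every WT outgrowth. The genes named in this paragraph were picked after their values were seen.

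Trophoblast giant cell genes rose together in mutants. Of 32 genes on a list of giant cell and spongiotrophoblast genes, 19 passed the filter on low values, 16 rose and 0 fell, with a median change of 5.95 (8.16 with the 11 members at 0 reads in blastocysts set at their bound) against 0.23 over all genes. Of all tested genes 18.3% rose and 12% fell, and each list count below in MUT stands against these shares. List counts in WT stand against 22.6% that rose and 16.1% that fell. List counts of called differences stand against 4.51% higher and 4.1% lower in MUT. Because a gene silent in blastocysts passed the filter only through the outgrowths, the count describes what was expressed. The same holds below for list members silent in 1 stage, which could change in 1 direction only. Without MUT outgrowth 3 and MUT blastocyst 1 the count was again 16. Summed over the list, levels were 16407 to 31347 FPKM in MUT outgrowths and 82.1 to 187 FPKM in MUT blastocysts, with 42059 to 58924 FPKM in WT outgrowths and 75.9 to 141 FPKM in WT blastocysts.

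Hand1 encodes the transcription factor required for giant cell differentiation. It stood at 11724, 8338, 7771 and 9008 FPKM in the MUT outgrowths, against 0, 0 and 0.313 FPKM in the MUT blastocysts, where 1 read was counted in all. Every outgrowth was far above every blastocyst, 87518-fold (95% counting interval 15707 to 3456790.0) higher by summed reads (log2 change 13.02, SE 0.21, limma adjusted p = 1.19e-07). WT levels were 6089 ± 1409 FPKM in WT outgrowths and 14.1 ± 13.9 FPKM in WT blastocysts, and the transitions were not shown to differ (MUT minus WT difference 3.35, SE 1.27, limma adjusted p = 0.118), although a difference was called without WT blastocyst 3 (adjusted p = 0.0255). Prl3d1, the placental lactogen I gene whose promoter is printed above, had 6989, 3621, 13458 and 12508 FPKM in the MUT outgrowths, against 0 reads in the MUT blastocysts. All 4 outgrowths expressed it, with outgrowth 2 the lowest, at least 33948-fold above a floor of 3 reads per library (log2 change 12.98, SE 0.45, limma adjusted p = 4.57e-06). WT outgrowths reached 20891 ± 5203 FPKM, and the difference between the transitions was not called (limma adjusted p = 0.0894, but 0.0436 without MUT outgrowth 3). Its near-identical neighbours Prl3d2 and Prl3d3 were at least 13483-fold and at least 11610.3-fold higher, but reads may be split among the 3 copies, so the single values are uncertain. Prl7a1, which encodes prolactin-like protein E, had 14765, 3676, 19031 and 8605 FPKM in the MUT outgrowths, against 0 reads in the MUT blastocysts. Outgrowth 2 was again the lowest, and the rise was at least 16114-fold (log2 change 13.25, SE 0.53, limma adjusted p = 8.27e-06). Prl2a1, another family member, had 1794, 501, 2979.5 and 1743 FPKM in the MUT outgrowths, against 0 reads in the MUT blastocysts, at least 2761-fold higher (log2 change 10.52, SE 0.56, limma adjusted p = 3.54e-05). Prl2c5, a proliferin gene with near-identical copies and therefore uncertain, was at least 10136-fold higher (log2 change 13.64, SE 0.40, limma adjusted p = 2.74e-06). Its difference from WT (difference 3.17, limma adjusted p = 0.0441) was lost without any 1 of 13 libraries (each but MUT outgrowth 4 and WT outgrowths 1 and 3, highest adjusted p = 0.0898).

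Prl5a1 rose less in mutants than in WT. It had 401, 435, 126 and 379 FPKM in the MUT outgrowths, against 0 reads in the MUT blastocysts. Outgrowth 3, the shallowest library, was the lowest, and all 4 lay above the blastocysts (at least 287-fold higher, log2 change 8.25, SE 0.46, limma adjusted p = 4.04e-05). WT outgrowths had 4836 ± 1506 FPKM, and the transitions differed (MUT minus WT difference −3.93, SE 0.48, limma adjusted p = 0.000267), a call lost with voom on recovered reads (adjusted p = 0.237). Cts7 and Cts8, placenta-specific cathepsin genes of 1 cluster whose reads may be shared, differed in the same direction. Cts7 averaged 0.243 ± 0.363 FPKM in MUT outgrowths and 0 reads in MUT blastocysts, against 896 ± 199 FPKM in WT outgrowths and 0 reads in WT blastocysts (SD, n = 4, 3, 4 and 5). The genotypes did not overlap in outgrowths (MUT minus WT difference −9.51, SE 0.35, limma adjusted p = 8.38e-10). Cts8 averaged 1.18 ± 1.37 FPKM in MUT outgrowths and 0 reads in MUT blastocysts, against 17.7 ± 3.63 FPKM in WT outgrowths and 0 reads in WT blastocysts (MUT minus WT difference −3.27, SE 0.49, limma adjusted p = 0.00105). Cts7 and Cts8 passed the filter through WT outgrowths and not in the MUT libraries, which all but fixed the direction of these differences. Ctsll3, another cathepsin of the same cluster, instead rose in every mutant outgrowth, with 20789, 17533, 26378 and 19516 FPKM in the MUT outgrowths, against 0 reads in the MUT blastocysts. It was at least 9796-fold higher than in blastocysts (log2 change 14.35, SE 0.18, limma adjusted p = 3.88e-08). WT outgrowths averaged 1969.9 ± 3254 FPKM and ranged from 27.6 to 6800.2 FPKM, and the called difference (limma adjusted p = 0.0427) was lost on leaving out any 1 library other than WT outgrowth 1 or 3 (highest adjusted p = 0.0774). With voom the adjusted p was 0.446. Car2, carbonic anhydrase II, had 3.63, 4.67, 4.36 and 4.09 FPKM in the MUT outgrowths, against 0, 0 and 0.739 FPKM in the MUT blastocysts. It rose, but to a low level (log2 change 2.11, SE 0.34, limma adjusted p = 0.00413). WT outgrowths averaged 101 ± 47.5 FPKM (MUT minus WT difference −4.26, SE 0.52, limma adjusted p = 0.000259, lost with voom, adjusted p = 0.202).

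Plac1, an X-linked gene of trophoblast, had 682, 656, 614 and 489 FPKM in the MUT outgrowths, against 1.23, 0.301 and 0 FPKM in the MUT blastocysts. The groups were far apart and the outgrowths close together (1199-fold higher, log2 change 8.73, SE 0.31, limma adjusted p = 4.57e-06). Cdkn1c encodes p57, the inhibitor of cyclin-dependent kinases that accompanies the switch of giant cells from mitosis to endocycles. It had 3909.9, 1781, 4612 and 1747 FPKM in the MUT outgrowths, against 3.07, 5.91 and 4.31 FPKM in the MUT blastocysts. Outgrowths 1 and 3 were far above outgrowths 2 and 4, and the mean was 680.1-fold that of blastocysts (log2 change 9.01, SE 0.42, limma adjusted p = 1.79e-05). Ascl2, a spongiotrophoblast regulator, had 299, 209, 448 and 149 FPKM in the MUT outgrowths, against 0 reads in the MUT blastocysts, at least 570.4-fold higher (log2 change 8.00, SE 0.39, limma adjusted p = 2.54e-05). Mdfi, an inhibitor of MyoD-family factors, had 62.9, 26.01, 83.4 and 38.7 FPKM in the MUT outgrowths, against 0, 1.46 and 3.12 FPKM in the MUT blastocysts (log2 change 4.50, SE 0.60, limma adjusted p = 0.00183). No outgrowth overlapped a blastocyst for either gene.

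**Figure D2:**
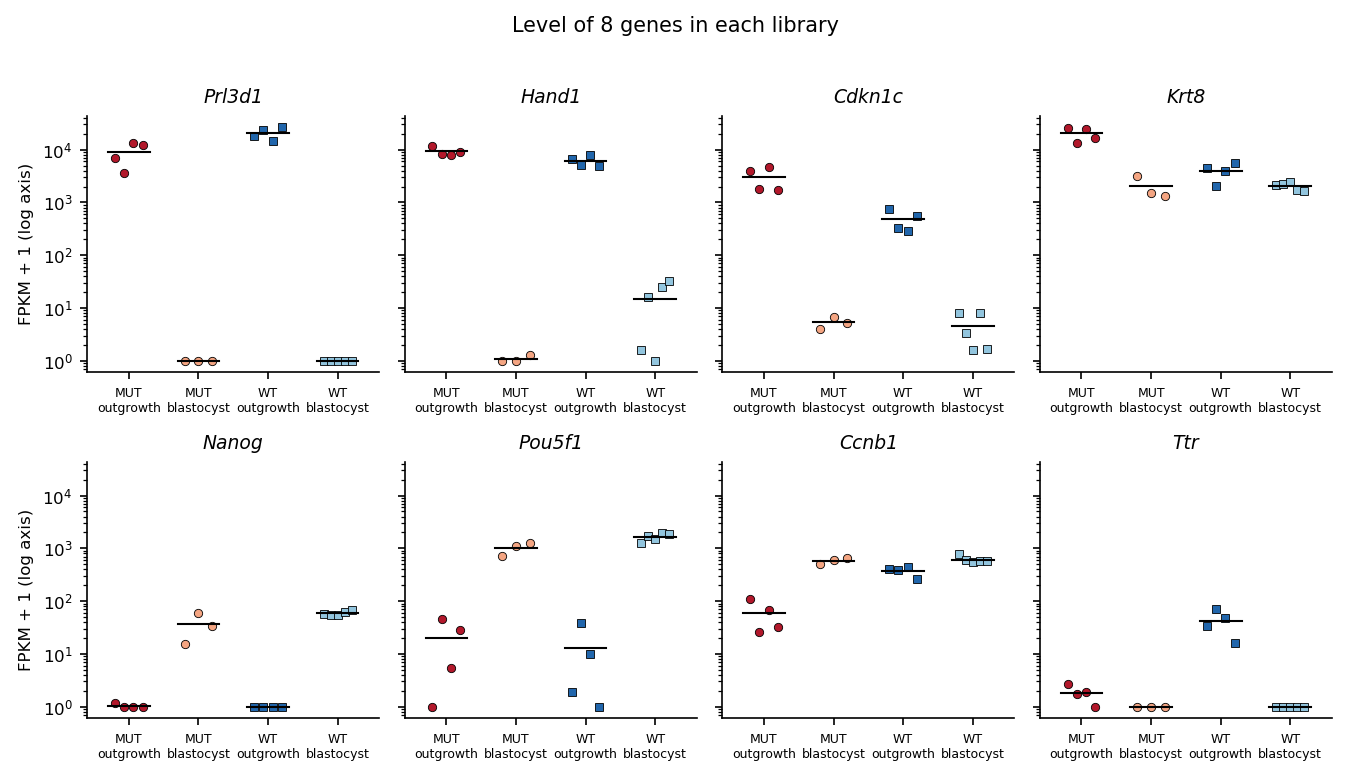
Level of 8 genes in every library, as FPKM + 1 on a log axis, with 1 point per embryo and a bar at the mean of MUT outgrowths (n = 4), MUT blastocysts (n = 3), WT outgrowths (n = 4) and WT blastocysts (n = 5). Prl3d1, Hand1 and Cdkn1c were high in all outgrowths of both genotypes, Nanog and Pou5f1 were low there, Ccnb1 fell further in MUT, and Ttr was switched on in WT outgrowths.

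Keratin genes of the trophectoderm rose in mutants. On a list of trophectoderm keratins, junction genes and transcription factors, 9 of 19 tested genes rose and 1 fell (median change 1.55), against 18.3% and 12% of all tested genes. Krt8, the type II keratin of simple epithelia, had 26138, 13522, 24446 and 16937 FPKM in the MUT outgrowths, against 3221, 1519 and 1341 FPKM in the MUT blastocysts. The lowest outgrowth was above the highest blastocyst (9.99-fold higher, log2 change 3.38, SE 0.36, limma adjusted p = 0.000764). Its partner Krt18 had 5163, 6322, 4956 and 6571 FPKM in the MUT outgrowths, against 1405, 1172 and 848 FPKM in the MUT blastocysts (5.04-fold higher, log2 change 2.35, SE 0.21, limma adjusted p = 0.000331). In WT the keratin pair changed less, with Krt8 at 4004 ± 1477 FPKM in WT outgrowths and 2035 ± 341 FPKM in WT blastocysts and a difference between the transitions of 2.497 (limma adjusted p = 0.00496), and for Krt18 of 1.87 (limma adjusted p = 0.00379). Krt7, another type II keratin, had 689, 553, 486 and 486 FPKM in the MUT outgrowths, against 40.3, 30.3 and 69.1 FPKM in the MUT blastocysts (log2 change 3.61, SE 0.30, limma adjusted p = 0.000246). Krt19, a type I keratin, had 1453, 725, 1333 and 967 FPKM in the MUT outgrowths, against 0 reads in the MUT blastocysts (log2 change 10.08, SE 0.28, limma adjusted p = 2.37e-06). Neither overlapped between stages, and Krt19 was at least 7323-fold higher.

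Transcription factors of the trophoblast went different ways. Tfap2c (AP-2γ) had 2226, 1519, 2047 and 1802 FPKM in the MUT outgrowths, against 255, 289 and 255 FPKM in the MUT blastocysts, 7.12-fold higher (log2 change 2.82, SE 0.17, limma adjusted p = 6.3e-05). Gata2 had 212, 124, 305 and 220.2 FPKM in the MUT outgrowths, against 15.1, 2.48 and 2.14 FPKM in the MUT blastocysts (log2 change 5.1996, SE 0.61, limma adjusted p = 0.00109). Both were above every blastocyst in every outgrowth. Gata3 had 250.1, 648, 173 and 559 FPKM in the MUT outgrowths, against 1277, 890.1 and 549 FPKM in the MUT blastocysts, overlapping groups with no call (log2 change −1.27, SE 0.52, limma adjusted p = 0.103). Cdx2, which specifies trophectoderm and keeps trophoblast stem cells, had 2.699, 41.9, 8.97 and 11.8 FPKM in the MUT outgrowths, against 116, 122 and 105 FPKM in the MUT blastocysts. All outgrowths were below all blastocysts, outgrowth 2 being the highest of them (log2 change −3.27, SE 0.73, limma adjusted p = 0.0147). The call was lost when MUT outgrowth 3 and MUT blastocyst 1 were both left out (adjusted p = 0.0656). Esrrb, an orphan nuclear receptor of stem cells, had 0 reads in the MUT outgrowths, against 18.1, 321 and 86.0 FPKM in the MUT blastocysts, at least 32.9-fold lower (log2 change −6.34, SE 0.85, limma adjusted p = 0.00198). There were 41.4 ± 47.5 FPKM in WT outgrowths and no called difference (limma adjusted p = 0.112, but 0.0301 without MUT blastocyst 1). Elf5, by contrast, had 23.6, 48.2, 34.4 and 55.0 FPKM in the MUT outgrowths, against 0, 0.392 and 0.514 FPKM in the MUT blastocysts (log2 change 4.94, SE 0.39, limma adjusted p = 0.000199). Ets2 had 336, 230.0, 571 and 209 FPKM in the MUT outgrowths, against 8.17, 0 and 7.95 FPKM in the MUT blastocysts (log2 change 6.16, SE 0.81, limma adjusted p = 0.00182). Both of these Ets-family genes rose without overlap, and Satb1, a chromatin organiser, did so too (9.88-fold higher, log2 change 3.64, SE 0.60, limma adjusted p = 0.00459). Eomes, a T-box gene of trophoblast stem cells, had 144, 306, 170.3 and 221 FPKM in the MUT outgrowths, against 141, 110.3 and 42.9 FPKM in the MUT blastocysts, where outgrowth 1 lay barely above blastocyst 1 and no change was called (limma adjusted p = 0.0815). On the list of trophoblast stem cell and extraembryonic ectoderm genes, 10 of 16 tested genes rose and 3 fell (median 1.364). The number that rose was 6 to 8 when 1 library was left out (6 without MUT outgrowth 2 or 4). Only 1 fell without MUT blastocyst 2 or 3, where Esrrb failed the filter and was not tested.

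Genes of the blastocoel wall, which move ions and water into the cavity, gave calls in both directions, and those named here did not hold in all settings. The sodium pump subunits Atp1b1 and Atp1b3 rose by 0.88 and 0.93 on the log2 scale and the water channel Aqp9 fell, with a log2 change of −2.89 (limma adjusted p = 0.0356, 0.0118 and 0.0473). The call of Aqp9 was lost on leaving out any 1 of 6 libraries (each but MUT outgrowth 4, highest adjusted p = 0.108), and that of Atp1b1 without MUT outgrowth 1, 3 or 4 or MUT blastocyst 2 or 3 (highest adjusted p = 0.1). That of Atp1b3 was lost without both MUT outgrowth 3 and MUT blastocyst 1 (adjusted p = 0.0581), and that of Atp1b1 also with FPKM as deposited or rescaled by the 75th percentile. Atp12a, a proton and potassium pump, had 115, 791, 313 and 1101 FPKM in the MUT outgrowths, against 2132, 120.1 and 264 FPKM in the MUT blastocysts. The groups overlapped and no change was called (limma adjusted p = 0.979). In WT it had 0 reads in WT outgrowths and 309 ± 159 FPKM in WT blastocysts, and the transitions differed by 8.22 (limma adjusted p = 0.000542).

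Epiblast genes fell in mutants. Of 19 tested genes of naive pluripotency and the blastocyst epiblast, 11 fell and 0 rose, with a median change of −2.73, and in WT 17 of 22 fell. Leaving out 1 library gave 6 to 11 falls, 6 without MUT blastocyst 2 or 3. Nanog, Tdgf1 and Esrrb passed the filter through the MUT blastocysts alone and could only fall. Without any 1 of these blastocysts they were not tested, so fewer falls there are not all lost calls. Without both MUT outgrowth 3 and MUT blastocyst 1, 9 of 14 tested genes fell. Nanog, the homeobox gene of naive pluripotency, had 0.154, 0, 0 and 0 FPKM in the MUT outgrowths, against 14.1, 59.4 and 33.4 FPKM in the MUT blastocysts. Outgrowth 1 alone held any read (log2 change −4.93, SE 0.50, limma adjusted p = 0.000608). Pou5f1 (Oct4), the pluripotency factor, had 0, 43.9, 4.42 and 27.5 FPKM in the MUT outgrowths, against 709, 1126 and 1261 FPKM in the MUT blastocysts. Outgrowth 1 had 0 reads, outgrowths 2 and 4 kept the most, and all lay far below the blastocysts (log2 change −6.78, SE 1.24, limma adjusted p = 0.00657). Tdgf1, the Nodal coreceptor, had 0 reads in the MUT outgrowths, against 218, 114 and 161 FPKM in the MUT blastocysts, at least 126-fold lower (log2 change −7.32, SE 0.33, limma adjusted p = 1.37e-05). Spp1, the secreted phosphoprotein osteopontin, had 0.555, 1.48, 2.28 and 0 FPKM in the MUT outgrowths, against 28.7, 119 and 203 FPKM in the MUT blastocysts (log2 change −5.58, SE 0.73, limma adjusted p = 0.00172). Tbx3, a T-box factor, had 4.34, 5.84, 0 and 7.97 FPKM in the MUT outgrowths, against 96.5, 189 and 59.7 FPKM in the MUT blastocysts (log2 change −4.61, SE 0.80, limma adjusted p = 0.0055). Both fell without overlap. Dppa2, a chromatin factor of pluripotent cells, had 8.20, 95.6, 4.84 and 49.5 FPKM in the MUT outgrowths, against 541, 2827 and 1962 FPKM in the MUT blastocysts, again with outgrowths 2 and 4 highest among the outgrowths (log2 change −6.00, SE 1.07, limma adjusted p = 0.00616). Not every gene of the list fell. Dppa5a, an RNA-binding protein gene, had 5309, 11762, 5095 and 10074 FPKM in the MUT outgrowths, against 9760.1, 5431 and 5814 FPKM in the MUT blastocysts, overlapping groups with no call (limma adjusted p = 0.774). In WT it fell, with 899 ± 542 FPKM in WT outgrowths and 7512 ± 2688 FPKM in WT blastocysts (difference 3.43, limma adjusted p = 0.00551). Zfp42 (Rex1) had 440.4, 692, 369 and 598 FPKM in the MUT outgrowths, against 448, 751 and 359 FPKM in the MUT blastocysts, without a call (limma adjusted p = 0.93), and WT likewise gave none (log2 change in WT −0.47, limma adjusted p = 0.122).

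Genes known from the oocyte and cleavage stages were low in mutant outgrowths. Dppa3 (Stella), a maternal factor that protects DNA methylation, had 4.72, 85.1, 9.49 and 28.3 FPKM in the MUT outgrowths, against 3573, 3799 and 4101 FPKM in the MUT blastocysts. Each outgrowth kept a trace, outgrowth 2 the most (log2 change −7.60, SE 0.85, limma adjusted p = 0.000881). Khdc3 (Filia), of the subcortical maternal complex, had 2.84, 163, 9.11 and 29.2 FPKM in the MUT outgrowths, against 5175, 5227 and 4614 FPKM in the MUT blastocysts, with the same outgrowth highest (log2 change −7.90, SE 1.14, limma adjusted p = 0.00259). In WT outgrowths both were near 0, at 0.603 ± 1.21 FPKM and 0.563 ± 1.13 FPKM, and the differences between the transitions were 3.42 (limma adjusted p = 0.0335) and 4.00 (limma adjusted p = 0.0441). The difference was lost for Dppa3 without any 1 of 10 of the 16 libraries (each but MUT outgrowths 1, 2 and 3, WT outgrowth 2 and WT blastocysts 1 and 4, highest adjusted p = 0.068) and for Khdc3 without any 1 of 12 (each but MUT outgrowths 1, 2 and 3 and WT outgrowth 2, highest adjusted p = 0.085). Nlrp14, an oocyte gene, had 0 reads in the MUT outgrowths, against 10.0, 7.23 and 16.4 FPKM in the MUT blastocysts (log2 change −3.54, SE 0.36, limma adjusted p = 0.000599). WT held 0 reads in WT outgrowths and 0.898 ± 2.01 FPKM in WT blastocysts (MUT minus WT difference −3.04, SE 0.66, limma adjusted p = 0.0122). Of 6 tested oocyte genes 3 fell and 0 rose. Without any 1 of the MUT blastocysts 1 fell, but Nlrp14, at 0 reads in MUT outgrowths, then failed the filter and was not tested. Bhmt, which methylates homocysteine with betaine, showed the largest fall of all named genes, with 0, 2.71, 0 and 1.33 FPKM in the MUT outgrowths, against 1715, 2348 and 4454 FPKM in the MUT blastocysts (log2 change −10.58, SE 0.57, limma adjusted p = 3.55e-05). Dmgdh, of the same betaine pathway, had 0 reads in the MUT outgrowths, against 184, 44.4 and 188 FPKM in the MUT blastocysts, at least 104-fold lower (log2 change −6.87, SE 0.54, limma adjusted p = 0.000202). Both fell in WT too (log2 change −11.53 and −6.92). Gldc, the glycine decarboxylase, had 33.4, 26.5, 0 and 0 FPKM in the MUT outgrowths, against 513, 974 and 1171 FPKM in the MUT blastocysts (log2 change −7.24, SE 1.42, limma adjusted p = 0.00879). WT outgrowths kept 302 ± 115 FPKM, and the transitions differed by −5.80 (limma adjusted p = 0.0207).

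Spic, Lama3, Slc6a13 and Ankle1 were also among the 10 largest falls. Spic, an Ets-family gene, had 0, 1.32, 0 and 0 FPKM in the MUT outgrowths, against 88.8, 211 and 365 FPKM in the MUT blastocysts (log2 change −7.27, SE 0.56, limma adjusted p = 0.000187). Lama3, a laminin chain, had 0, 0.849, 0 and 0 FPKM in the MUT outgrowths, against 203, 345 and 229 FPKM in the MUT blastocysts. Outgrowth 2 held the only read (964-fold lower, 95% counting interval 173 to 38133, log2 change −7.76, SE 0.37, limma adjusted p = 1.96e-05). Slc6a13, a GABA and taurine transporter, had 0, 6.53, 0 and 0 FPKM in the MUT outgrowths, against 412, 426 and 197 FPKM in the MUT blastocysts (log2 change −7.63, SE 0.79, limma adjusted p = 0.000688). For all 3 genes outgrowth 2 alone had any read. Ankle1, an endonuclease gene, had 0, 0, 0 and 207 FPKM in the MUT outgrowths, against 1136, 1174 and 767 FPKM in the MUT blastocysts, expressed in outgrowth 4 and at 0 reads in the others (log2 change −8.05, SE 1.88, limma adjusted p = 0.017). That call was lost when MUT outgrowth 3 and MUT blastocyst 1 were both left out (adjusted p = 0.0761). WT outgrowths averaged 263 ± 156 FPKM, and the called difference (limma adjusted p = 0.0429) was lost without any 1 library other than MUT outgrowth 4 or WT blastocyst 1 (highest adjusted p = 0.0839).

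Most of the tested visceral endoderm genes rose in WT outgrowths, and for most the change was lower in mutants. This tissue, which forms from primitive endoderm, secretes apolipoproteins and carrier proteins. Of 20 genes on the list only 4 passed the filter in the MUT libraries, and those 4 fell (1 or 2 when 1 library other than MUT outgrowth 1 was left out). Cited1 passed through the MUT blastocysts alone and could only fall, and without any 1 of these it was not tested. The count of falls therefore describes in part what blastocysts expressed. In the 16 libraries 14 passed, and 11 of them rose and 1 fell in WT. Some of the 14, such as Spink1, Soat2 and Trf, passed only through WT outgrowths, so their difference could only be lower in MUT. The transitions differed for 10 of the 14, all lower in MUT, against 4.1% of all tested genes. This count therefore describes in part what WT outgrowths expressed. Summed levels were 6.96 to 41.8 FPKM in MUT outgrowths and 82.8 to 182 FPKM in MUT blastocysts, against 416 to 1594 FPKM in WT outgrowths and 198 to 410.0 FPKM in WT blastocysts. Ttr, the thyroxine carrier transthyretin, averaged 0.82896 ± 0.671 FPKM in MUT outgrowths and 0 reads in MUT blastocysts, against 40.8 ± 22.6 FPKM in WT outgrowths and 0 reads in WT blastocysts (MUT minus WT difference −4.41, SE 0.56, limma adjusted p = 0.0003). Spink1, a trypsin inhibitor, averaged 0.0622 ± 0.0825 FPKM in MUT outgrowths and 0 reads in MUT blastocysts, against 19.7 ± 19.8 FPKM in WT outgrowths and 0 reads in WT blastocysts (MUT minus WT difference −3.84, SE 0.65, limma adjusted p = 0.00266). Soat2, which esterifies cholesterol, averaged 0.0477 ± 0.0954 FPKM in MUT outgrowths and 0 reads in MUT blastocysts, against 9.48 ± 6.96 FPKM in WT outgrowths and 0.135 ± 0.302 FPKM in WT blastocysts (MUT minus WT difference −2.98, SE 0.49, limma adjusted p = 0.00217). For all 3 genes the lowest WT outgrowth was above the highest MUT outgrowth. Apom, an apolipoprotein, averaged 0.0488 ± 0.0976 FPKM in MUT outgrowths and 3.82 ± 3.87 FPKM in MUT blastocysts, against 66.4 ± 52.4 FPKM in WT outgrowths and 5.19 ± 3.97 FPKM in WT blastocysts (MUT minus WT difference −5.24, SE 1.14, limma adjusted p = 0.0119). Trf, transferrin, had 0 reads in MUT outgrowths and 0.0564 ± 0.0977 FPKM in MUT blastocysts, against 8.20 ± 9.68 FPKM in WT outgrowths and 0 reads in WT blastocysts (MUT minus WT difference −2.77, SE 0.65, limma adjusted p = 0.0171). Against HET and WT embryos together, the differences of Apom and Trf were not called (adjusted p = 0.0982 and 0.0538), nor were those of Apoe and Foxa2, described below (adjusted p = 0.0626 and 0.0659).

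The 4 called members were Cited1, Apoa1, Amn and Apoe. Cited1, a transcriptional coregulator, had 0.701, 0.501, 0 and 0.776 FPKM in the MUT outgrowths, against 13.6, 27.998 and 49.98 FPKM in the MUT blastocysts (log2 change −4.25, SE 0.49, limma adjusted p = 0.00103). Apoa1, an apolipoprotein, had 0.246, 0.211, 10.1 and 0 FPKM in the MUT outgrowths, against 28.5, 54.3 and 33.5 FPKM in the MUT blastocysts, with outgrowth 3 apart from the others (log2 change −4.24, SE 0.87, limma adjusted p = 0.0102). Amn, the membrane anchor of the cubilin receptor, had 2.15, 1.37, 0 and 0.197 FPKM in the MUT outgrowths, against 2.55, 8.87 and 14.7 FPKM in the MUT blastocysts, and Apoe had 13.9, 22.4, 22.3 and 5.97 FPKM in the MUT outgrowths, against 37.9, 34.1 and 78.3 FPKM in the MUT blastocysts. The groups did not overlap for either. The calls of Amn (limma adjusted p = 0.0356) and Apoe (limma adjusted p = 0.0496) did not hold without single libraries, Amn without MUT outgrowth 2, 3 or 4 or MUT blastocyst 2 or 3 (highest adjusted p = 0.102) and Apoe without any 1 of the 7 (highest adjusted p = 0.138). Apoe rose in WT, with 420.4 ± 315 FPKM in WT outgrowths and 128 ± 63.8 FPKM in WT blastocysts, and the transitions differed by −3.18 (limma adjusted p = 0.0167), as they did for Amn by −5.42 (limma adjusted p = 0.00546) and for Cited1 by −4.88 (limma adjusted p = 0.00596). Cited1 gave no call in WT (log2 change in WT 0.64, limma adjusted p = 0.448). Apoa1 fell in WT as well (log2 change in WT −2.10, limma adjusted p = 0.0496), and its transitions were not shown to differ (difference −2.13, limma adjusted p = 0.31). With voom the differences of Apoe and Cited1 were lost (adjusted p = 0.14 and 0.068).

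Primitive endoderm and parietal endoderm genes were mixed. Gata6, the factor that starts primitive endoderm, had 7.40, 82.6, 0 and 0 FPKM in the MUT outgrowths, against 268, 517 and 342 FPKM in the MUT blastocysts. Outgrowth 2 kept the most and outgrowths 3 and 4 had 0 reads (log2 change −6.14, SE 1.502, limma adjusted p = 0.0202). The call was lost without MUT blastocyst 2 or 3 (highest adjusted p = 0.0597). Gata4, a related factor, had 9.97, 33.4, 17.3 and 4.26 FPKM in the MUT outgrowths, against 0, 10.7 and 0 FPKM in the MUT blastocysts, without a call in MUT (limma adjusted p = 0.0916). Without MUT blastocyst 2 a rise was called (log2 change 3.78, adjusted p = 0.0166). It rose in WT (log2 change in WT 3.48, limma adjusted p = 0.00531), a difference that was not called (limma adjusted p = 0.738). Lrp2, the endocytic receptor megalin, had 0.642, 10.1, 0.846 and 0.443 FPKM in the MUT outgrowths, against 81.9, 92.7 and 65.3 FPKM in the MUT blastocysts (log2 change −4.93, SE 0.73, limma adjusted p = 0.00286). It also fell in WT (log2 change in WT −3.56, limma adjusted p = 0.000208). Foxa2, a forkhead factor of endoderm, averaged 0.596 ± 0.534 FPKM in MUT outgrowths and 0 reads in MUT blastocysts, against 4.14 ± 0.835 FPKM in WT outgrowths and 0 reads in WT blastocysts (MUT minus WT difference −1.73, SE 0.35, limma adjusted p = 0.00775), a call lost with voom (adjusted p = 0.0672). Follistatin, Fst, an activin inhibitor, averaged 0.0964 ± 0.148 FPKM in MUT outgrowths and 0 reads in MUT blastocysts, against 6.23 ± 1.37 FPKM in WT outgrowths and 0.00771 ± 0.0172 FPKM in WT blastocysts (MUT minus WT difference −2.699, SE 0.29, limma adjusted p = 0.000101). Foxa2 and Fst passed the filter through WT outgrowths and not in the MUT libraries, which all but fixed the direction of these differences. The retinoic acid hydroxylase Cyp26a1 had 21.2, 35.2, 0 and 0 FPKM in the MUT outgrowths, against 0, 8.82 and 0 FPKM in the MUT blastocysts. WT had 415 ± 228 FPKM in WT outgrowths and 0.273 ± 0.611 FPKM in WT blastocysts (MUT minus WT difference −6.96, SE 1.57, limma adjusted p = 0.0144), and the groups of outgrowths did not overlap. Snai1, a factor of parietal endoderm and of epithelial to mesenchymal transition, rose in mutants, with 16.3, 13.9, 19.2 and 19.5 FPKM in the MUT outgrowths, against 0, 0.146 and 0 FPKM in the MUT blastocysts (log2 change 4.11, SE 0.31, limma adjusted p = 0.000163). So did Nid1, a basement membrane linker, with 382, 576, 529.7 and 663 FPKM in the MUT outgrowths, against 81.2, 155 and 94.2 FPKM in the MUT blastocysts (4.89-fold higher, log2 change 2.31, SE 0.29, limma adjusted p = 0.00142). Its relative Nid2 had 2.38, 13.5, 2.73 and 4.24 FPKM in the MUT outgrowths, against 63.1, 32.6 and 22.6 FPKM in the MUT blastocysts and fell (log2 change −2.73, SE 0.60, limma adjusted p = 0.0137), a call lost without both MUT outgrowth 3 and MUT blastocyst 1 (adjusted p = 0.0663). Of 15 tested primitive endoderm genes 2 rose and 5 fell (median 0.15), against 18.3% and 12% of all tested genes, with no rise left without MUT outgrowth 1, 2 or 3 and 2 falls without MUT blastocyst 2 or 3. Of 14 parietal endoderm and basement membrane genes 4 rose and 2 fell (median 1.31), against the same shares, with 2 rises without MUT outgrowth 1 or 3. Markers of maternal tissue, a possible carry-over, were at 162 to 293 FPKM summed in MUT outgrowths and 29.4 to 892 FPKM in MUT blastocysts, with 2892 to 7053 FPKM in WT outgrowths and 213 to 823 FPKM in WT blastocysts. Of the 15 markers, 8, 10, 7 and 9 had 0 reads in these groups. Nearly all of each sum was Pecam1, an adhesion gene of blood vessels that the inner cell mass is also known to express, at means of 247 and 421 FPKM in MUT outgrowths and MUT blastocysts and 5047 and 462 FPKM in WT outgrowths and WT blastocysts. The collagen gene Col1a2, the stromal gene Dcn and the leukocyte gene Ptprc had 0 reads in all 4 groups, but other markers had reads. Summed reads of Des, Col3a1 and Bmp2 were 993, 508 and 197 in WT outgrowths and 19, 0 and 2 in MUT outgrowths. Hbb-bs and Hba-a1 had 70 and 47 reads in MUT blastocysts, and 11 and 4 in MUT outgrowths. The part of these markers in the results was not tested.

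**Figure D3:**
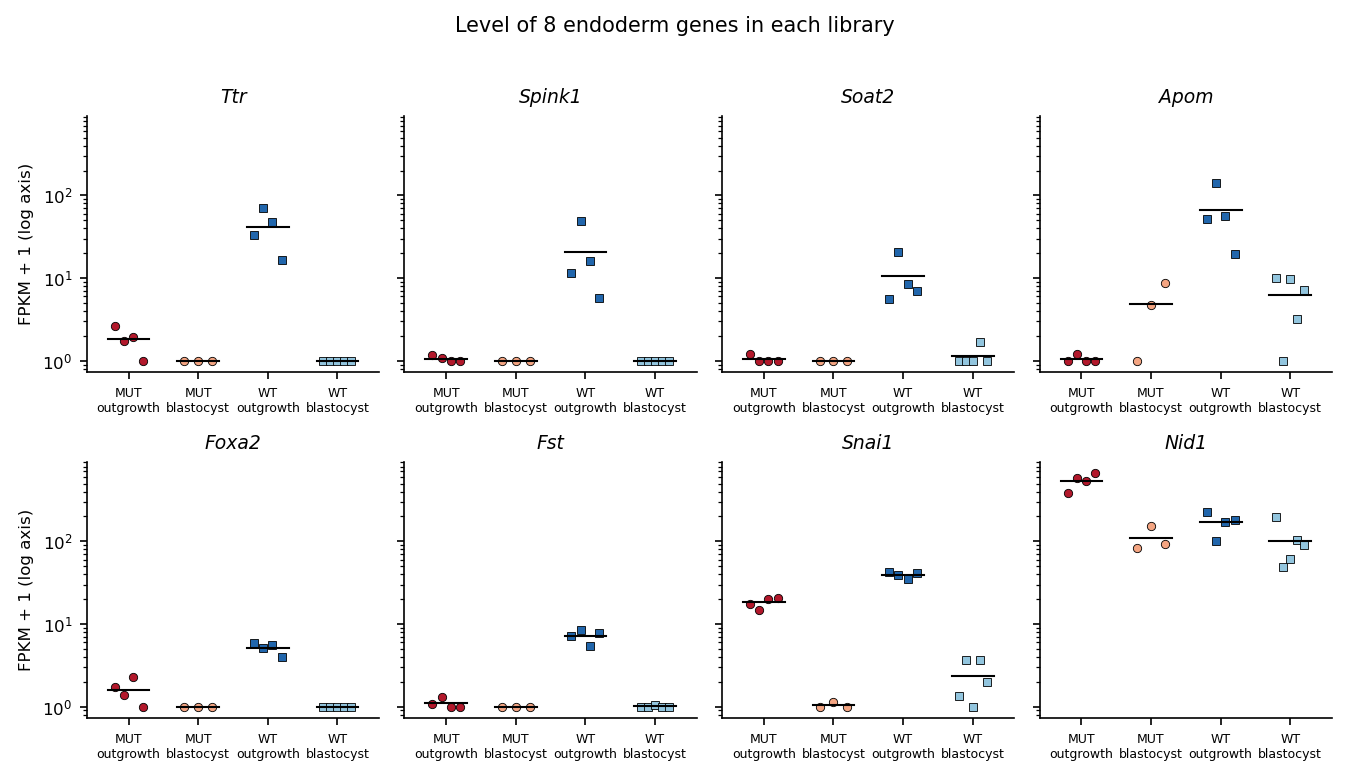
Level of 8 endoderm genes in every library, as FPKM + 1 on a log axis, with 1 point per embryo and a bar at the group mean of MUT outgrowths (n = 4), MUT blastocysts (n = 3), WT outgrowths (n = 4) and WT blastocysts (n = 5). Ttr, Spink1, Soat2, Apom, Foxa2 and Fst were higher in every WT outgrowth than in any MUT outgrowth, while Snai1 and Nid1 rose in MUT.

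Mitosis genes fell further in mutants than in WT. Of 27 tested genes of the spindle, its checkpoint and cytokinesis, 25 fell and 0 rose in MUT, with a median change of −2.77, against 12 that fell in WT and a median of −0.64 there. The transitions differed for 20 of the 27, all lower in MUT, against 4.1% of all tested genes. Leaving out 1 library left 23 to 25 falls in MUT. Ccnb1, cyclin B1, the mitotic cyclin, had 108, 24.8, 65.2 and 31.3 FPKM in the MUT outgrowths, against 498, 617 and 658 FPKM in the MUT blastocysts. Outgrowth 1 kept the most, and all were below the blastocysts (log2 change −3.57, SE 0.49, limma adjusted p = 0.0022). WT had 373 ± 75.6 FPKM in WT outgrowths and 613 ± 88.5 FPKM in WT blastocysts (difference −2.83, limma adjusted p = 0.00343). Aurkb, the chromosomal passenger kinase, had 11.2, 2.69, 8.45 and 11.5 FPKM in the MUT outgrowths, against 150.0, 77.9 and 61.8 FPKM in the MUT blastocysts (log2 change −3.41, SE 0.52, limma adjusted p = 0.00343). Its partner survivin, Birc5, had 187, 97.4, 221 and 196 FPKM in the MUT outgrowths, against 1579, 1710.0 and 2061 FPKM in the MUT blastocysts (log2 change −3.39, SE 0.30, limma adjusted p = 0.000331). Neither overlapped, and the transitions differed by −3.27 (limma adjusted p = 0.00242) and −2.31 (limma adjusted p = 0.000259). Top2a, the topoisomerase that untangles replicated chromosomes, had 285, 63.2, 156 and 160.0 FPKM in the MUT outgrowths, against 1566, 1403 and 1454 FPKM in the MUT blastocysts (log2 change −3.33, SE 0.45, limma adjusted p = 0.00204). WT had 799 ± 78.6 FPKM in WT outgrowths and 797 ± 424 FPKM in WT blastocysts and no call (difference −3.44, limma adjusted p = 0.00174). Plk1, the polo-like kinase, had 91.2, 11.9, 85.7 and 76.2 FPKM in the MUT outgrowths, against 526, 534 and 410.2 FPKM in the MUT blastocysts, with outgrowth 2 far below the others (log2 change −3.20, SE 0.68, limma adjusted p = 0.0122, difference −3.09, limma adjusted p = 0.0161). Aurka, the spindle pole kinase, Kif20a, a kinesin of cytokinesis, and Cenpa, the centromeric histone, fell in both genotypes. Their log2 changes were −3.10, −3.50 and −2.89 in MUT and −1.24, −1.08 and −1.17 in WT (differences −1.85, −2.41 and −1.70, limma adjusted p = 0.00276, 0.00136 and 0.000423). The exceptions were Incenp and Bub1b. Incenp had 499, 234, 724 and 275 FPKM in the MUT outgrowths, against 292, 527 and 466 FPKM in the MUT blastocysts. Bub1b had 5.197, 3.23, 5.01 and 0.839 FPKM in the MUT outgrowths, against 8.02, 10.5 and 16.9 FPKM in the MUT blastocysts (limma adjusted p = 0.893 and 0.0576). Incenp overlapped between stages, while Bub1b was lower in every outgrowth and was called lower in 6 of the 18 other settings.

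**Figure D4:**
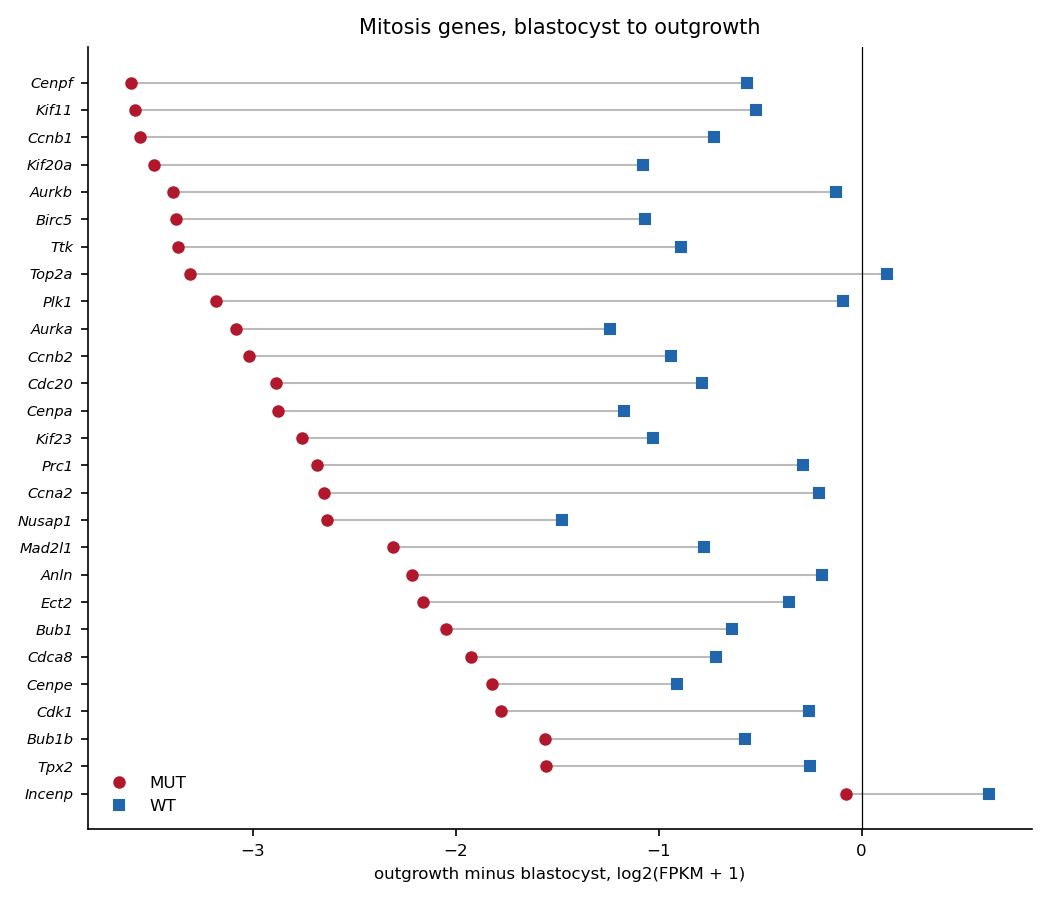
Log2 change of FPKM + 1 from blastocyst to outgrowth of 27 mitosis genes, MUT as red circles and WT as blue squares joined per gene, from the fit of 16 libraries. Every MUT circle lies left of its WT square, and the median change was −2.77 in the 7 MUT libraries against −0.64 in WT.

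DNA replication genes fell less. Of 31 tested genes, 16 fell and 1, the primase subunit gene Prim1, rose, with a median change of −0.94, against 8 that fell in WT. The transitions differed for 4 of the 31, all lower in MUT, against 4.1% of all tested genes. Prim1 had 517, 371, 660.2 and 378 FPKM in the MUT outgrowths, against 214, 177 and 255 FPKM in the MUT blastocysts (log2 change 1.13, SE 0.26, limma adjusted p = 0.0155). The call was lost without MUT blastocyst 2 (adjusted p = 0.0539) or both MUT outgrowth 3 and MUT blastocyst 1 (adjusted p = 0.051). Tk1, the thymidine kinase made in S phase, had 65.4, 97.8, 53.6 and 72.9 FPKM in the MUT outgrowths, against 612, 607 and 644 FPKM in the MUT blastocysts (8.57-fold lower, log2 change −3.12, SE 0.23, limma adjusted p = 0.00014). The groups were wide apart, whereas WT had 628 ± 143 FPKM in WT outgrowths and 677 ± 114 FPKM in WT blastocysts and no call (difference −2.98, limma adjusted p = 2.3e-05). Tyms, thymidylate synthase, had 94.5, 77.6, 99.5 and 89.9 FPKM in the MUT outgrowths, against 194, 180.0 and 213 FPKM in the MUT blastocysts (log2 change −1.11, SE 0.18, limma adjusted p = 0.00404). It also fell in WT (log2 change −1.03, difference −0.06, limma adjusted p = 0.894). Mcm10, a replication initiation factor, had 3.05, 3.75, 5.60 and 3.82 FPKM in the MUT outgrowths, against 26.7, 32.5 and 33.03 FPKM in the MUT blastocysts (log2 change −2.67, SE 0.30, limma adjusted p = 0.000929). Rfc5, a clamp loader subunit, had 1038, 341, 833 and 554 FPKM in the MUT outgrowths, against 2234, 2023 and 1959 FPKM in the MUT blastocysts (log2 change −1.70, SE 0.36, limma adjusted p = 0.0123). Among G1 and endocycle regulators, Ccne2, cyclin E2, which drives S phase entry, had 241, 135, 347 and 129 FPKM in the MUT outgrowths, against 44.5, 19.9 and 43.9 FPKM in the MUT blastocysts (5.91-fold higher, log2 change 2.49, SE 0.45, limma adjusted p = 0.00625). Ccnd3, cyclin D3, had 35.3, 45.1, 60.7 and 35.7 FPKM in the MUT outgrowths, against 183, 232 and 229.5 FPKM in the MUT blastocysts (log2 change −2.28, SE 0.25, limma adjusted p = 0.000825). On that list 3 of 16 tested genes rose and 2 fell, and 0 differed between the genotypes by limma.

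Glycolysis genes rose in both genotypes, but several rose less in mutants. In MUT 14 of 20 tested genes of glycolysis and glucose transport rose and 2 fell (median 1.55), and in WT 16 rose and 1 fell. The falls numbered 0 without MUT outgrowth 2 or 3 or MUT blastocyst 2 or 3. Slc2a1, the glucose transporter GLUT1, had 2099, 1438, 2658 and 686 FPKM in the MUT outgrowths, against 66.2, 64.8 and 99.8 FPKM in the MUT blastocysts (22.4-fold higher, log2 change 4.33, SE 0.46, limma adjusted p = 0.000731). Ldha, lactate dehydrogenase A, had 629, 332, 508 and 338 FPKM in the MUT outgrowths, against 1.62, 3.99 and 1.78 FPKM in the MUT blastocysts (183-fold higher, log2 change 7.04, SE 0.35, limma adjusted p = 2.64e-05). Slc16a3, the lactate exporter MCT4, had 186, 71.5, 138 and 118 FPKM in the MUT outgrowths, against 1.12, 0 and 0.98 FPKM in the MUT blastocysts (log2 change 6.25, SE 0.43, limma adjusted p = 0.00011). No outgrowth overlapped a blastocyst for these genes, and none of the 3 differed between the genotypes at the threshold (limma adjusted p = 0.612, 0.0694 and 0.0917). Without WT blastocyst 1 the difference of Ldha was called (adjusted p = 0.0136), and without MUT blastocyst 2 that of Slc16a3 (adjusted p = 0.0436). Pfkp, the platelet phosphofructokinase, had 1145, 694, 769 and 688 FPKM in the MUT outgrowths, against 0 reads in the MUT blastocysts (at least 625-fold higher, log2 change 9.65, SE 0.25, limma adjusted p = 1.51e-06). The liver isoform Pfkl had 138, 149, 93.0 and 151 FPKM in the MUT outgrowths, against 129, 119.8 and 95.2 FPKM in the MUT blastocysts, without a call in MUT (limma adjusted p = 0.569). WT had 739.8 ± 120.5 FPKM in WT outgrowths and 147 ± 63.0 FPKM in WT blastocysts (difference −2.19, limma adjusted p = 0.00341). Pkm, pyruvate kinase M, had 499, 364, 505 and 367 FPKM in the MUT outgrowths, against 847, 581 and 647 FPKM in the MUT blastocysts. WT had 2590.1 ± 324 FPKM in WT outgrowths and 670.3 ± 35.6 FPKM in WT blastocysts. All MUT outgrowths were below all MUT blastocysts, and the transitions differed (MUT minus WT difference −2.60, SE 0.22, limma adjusted p = 1.09e-05), although the MUT call itself (limma adjusted p = 0.0488) was lost without any 1 of the 7 libraries (highest adjusted p = 0.114). Eno1, Pgk1 and Pgam1, of the lower part of the pathway, rose by 1.54, 1.56 and 1.09 on the log2 scale in MUT and by 3.29, 3.08 and 2.20 in WT (differences −1.73, −1.499 and −1.10, limma adjusted p = 0.000423, 0.0112 and 0.00909).

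Integrated stress response genes, which amino acid shortage and unfolded proteins induce through ATF4, rose in mutants. In MUT 15 of 16 tested genes rose and 0 fell (median 2.54), and 11 to 14 rose when 1 library was left out. In WT 13 of 18 rose and 0 fell. The change was called lower in MUT than in WT for 2 genes, named here after their values were seen. They were Shmt2, of mitochondrial serine metabolism, at 1.23 in MUT and 2.34 in WT on the log2 scale, and Chac1, which degrades glutathione, at 0.63 and 3.10. Slc3a2, the amino acid transporter heavy chain, had 13257, 12293, 13993 and 11786 FPKM in the MUT outgrowths, against 1982, 3025 and 2760.5 FPKM in the MUT blastocysts (4.96-fold higher, log2 change 2.33, SE 0.17, limma adjusted p = 0.000141). Trib3, a pseudokinase target of ATF4, had 11.6, 28.05, 14.7 and 27.2 FPKM in the MUT outgrowths, against 0, 2.13 and 0.592 FPKM in the MUT blastocysts (log2 change 3.55, SE 0.52, limma adjusted p = 0.0028). Mthfd2, of mitochondrial folate metabolism, had 1015, 1755, 937 and 1787 FPKM in the MUT outgrowths, against 54.2, 140.2 and 343 FPKM in the MUT blastocysts (log2 change 3.24, SE 0.59, limma adjusted p = 0.00655). Outgrowths were above blastocysts in each of these 3, and no difference between the genotypes was called for them (differences 0.55, 0.08 and −0.02, limma adjusted p = 0.383, 0.964 and 0.992). Pck2, mitochondrial phosphoenolpyruvate carboxykinase, had 3.00, 30.9, 36.6 and 47.4 FPKM in the MUT outgrowths, against 0 reads in the MUT blastocysts, with outgrowth 1 the lowest (log2 change 4.46, SE 0.85, limma adjusted p = 0.00796).

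Immediate early genes and Myc, which serum induces within minutes to hours, were likewise higher. Of 14 tested genes 10 rose and 0 fell (median 2.96, or 3.84 with the 3 members at 0 reads in blastocysts set at their bound). Those 3 passed the filter only through the outgrowths and could only rise. Fos had 398, 291, 544 and 301 FPKM in the MUT outgrowths, against 6.41, 3.19 and 0 FPKM in the MUT blastocysts (log2 change 6.89, SE 0.65, limma adjusted p = 0.000468). Fosl1, the AP-1 subunit Fra-1, had 176, 109, 154 and 162 FPKM in the MUT outgrowths, against 0 reads in the MUT blastocysts (at least 42.7-fold higher, log2 change 7.22, SE 0.28, limma adjusted p = 5.58e-06). Junb, another AP-1 subunit, had 429, 348, 447 and 384 FPKM in the MUT outgrowths, against 10.8, 12.6 and 2.28 FPKM in the MUT blastocysts (log2 change 5.64, SE 0.48, limma adjusted p = 0.00029). These AP-1 genes were above every blastocyst in every outgrowth. Myc had 7062, 4726, 5615 and 4963 FPKM in the MUT outgrowths, against 13.5, 27.03 and 81.6 FPKM in the MUT blastocysts (137-fold higher, log2 change 7.42, SE 0.53, limma adjusted p = 0.00014). The change was larger than in WT, which had 2179 ± 356 FPKM in WT outgrowths and 195 ± 139.9 FPKM in WT blastocysts (difference 3.69, limma adjusted p = 0.00764). Klf6, a zinc finger factor, had 466, 737, 525 and 771 FPKM in the MUT outgrowths, against 38.1, 25.9 and 12.4 FPKM in the MUT blastocysts (log2 change 4.66, SE 0.39, limma adjusted p = 0.000246). This too was a larger change than in WT (difference 2.34, limma adjusted p = 0.00868).

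Iron and oxidative stress genes rose. Of 19 tested genes 10 rose and 0 fell (median 1.15), 6 to 9 when 1 library was left out and 6 without MUT outgrowth 1. Hmox1, heme oxygenase, had 1582, 1458, 2265 and 1377 FPKM in the MUT outgrowths, against 12.3, 13.3 and 35.3 FPKM in the MUT blastocysts (82.3-fold higher, log2 change 6.43, SE 0.38, limma adjusted p = 5.54e-05). WT had 571 ± 231 FPKM in WT outgrowths and 28.8 ± 7.08 FPKM in WT blastocysts (difference 2.22, limma adjusted p = 0.011, lost with voom, adjusted p = 0.0659). Ftl1, ferritin light chain, had 6423, 6542, 6507 and 5361 FPKM in the MUT outgrowths, against 1009, 959.9 and 1515 FPKM in the MUT blastocysts (log2 change 2.44, SE 0.19, limma adjusted p = 0.000187, difference 1.64, limma adjusted p = 0.000208). Fth1, the heavy chain, had 45593, 36137, 41182 and 32557 FPKM in the MUT outgrowths, against 6047, 4849.9 and 5696 FPKM in the MUT blastocysts (7.03-fold higher, log2 change 2.81, SE 0.15, limma adjusted p = 3.55e-05). It also rose in WT (log2 change 2.63, difference 0.19, limma adjusted p = 0.71). Slc40a1, the iron exporter ferroportin, had 51.8, 130.3, 127 and 286 FPKM in the MUT outgrowths, against 0 reads in the MUT blastocysts (at least 1219-fold higher, log2 change 6.98, SE 0.54, limma adjusted p = 0.000187). WT outgrowths had 11.7 ± 4.72 FPKM (difference 4.70, limma adjusted p = 0.00145). Gclc, which makes the glutathione precursor, had 124, 103, 145 and 107 FPKM in the MUT outgrowths, against 16.4, 20.1 and 7.93 FPKM in the MUT blastocysts (log2 change 3.01, SE 0.33, limma adjusted p = 0.00084).

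Imprinted genes, many of which act in the placenta, rose in mutants, 12 of 18 tested with 0 that fell (median 3.48, or 4.26 with the 4 members at 0 reads in blastocysts set at their bound). These 4 passed the filter only through the outgrowths and could only rise. H19, a noncoding RNA, had 1386, 429, 1255 and 1193 FPKM in the MUT outgrowths, against 0 reads in the MUT blastocysts, with outgrowth 2 the lowest (at least 2086-fold higher, log2 change 9.93, SE 0.42, limma adjusted p = 1.17e-05). Its neighbour Igf2, insulin-like growth factor 2, had 225, 73.7, 93.3 and 129 FPKM in the MUT outgrowths, against 0, 0.206 and 0 FPKM in the MUT blastocysts, where 1 read was counted in all (1878-fold higher, 95% counting interval 337 to 74192, log2 change 6.82, SE 0.41, limma adjusted p = 5.87e-05). Both were silent or nearly so in blastocysts, and neither transition differed from WT at the threshold (limma adjusted p = 0.121 and 0.465, with H19 called without WT blastocyst 1, adjusted p = 0.0336). Phlda2, which restrains placental growth, had 928, 809, 1463 and 1241 FPKM in the MUT outgrowths, against 0, 0 and 0.967 FPKM in the MUT blastocysts (3442-fold higher, log2 change 9.75, SE 0.34, limma adjusted p = 4.57e-06). WT had 102 ± 21.6 FPKM in WT outgrowths and 0.589 ± 0.62 FPKM in WT blastocysts (difference 3.69, limma adjusted p = 0.000267, lost with voom, adjusted p = 0.178). Peg10, a retrotransposon-derived gene that the placenta needs, had 10777, 5529, 9965 and 7240.2 FPKM in the MUT outgrowths, against 0, 0 and 16.5 FPKM in the MUT blastocysts (log2 change 11.61, SE 0.98, limma adjusted p = 0.000267). WT outgrowths had 678 ± 199 FPKM, and the called difference (limma adjusted p = 0.0359) was lost without any 1 of 11 libraries (each but MUT outgrowth 2, MUT blastocyst 3 and WT blastocysts 1, 2 and 3, highest adjusted p = 0.0854).

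Genes of the actin cytoskeleton and of adhesion to the substrate rose, 13 of 21 tested with 3 that fell (median 1.52). Without MUT blastocyst 2 there was 1 fall, but Ccn2, described below, was then not tested. Flnc, filamin C, an actin crosslinker, had 1604, 768, 2361 and 1297 FPKM in the MUT outgrowths, against 0 reads in the MUT blastocysts (at least 362-fold higher, log2 change 10.45, SE 0.37, limma adjusted p = 4.57e-06). Itgb3, integrin β3, had 246, 157, 267 and 253 FPKM in the MUT outgrowths, against 0 reads in the MUT blastocysts (at least 556-fold higher, log2 change 7.83, SE 0.28, limma adjusted p = 4.57e-06). Tpm1, tropomyosin, had 5152, 4114, 3559 and 3656 FPKM in the MUT outgrowths, against 987, 722 and 805 FPKM in the MUT blastocysts (log2 change 2.29, SE 0.19, limma adjusted p = 0.000219). In each the groups were apart, and no difference from WT was called (differences 0.71, −0.93 and 0.27, limma adjusted p = 0.491, 0.0721 and 0.488). Itga7, a laminin-binding integrin, had 309.6, 125, 269 and 283 FPKM in the MUT outgrowths, against 23.8, 13.4 and 19.6 FPKM in the MUT blastocysts (log2 change 3.59, SE 0.37, limma adjusted p = 0.000691). This was a smaller change than in WT (difference −4.23, limma adjusted p = 0.0137). Ankrd1, a target of mechanical signalling through YAP, had 656, 764, 399.6 and 783 FPKM in the MUT outgrowths, against 0, 1.51 and 0 FPKM in the MUT blastocysts, with 1 read in the blastocysts (1334-fold higher, 95% counting interval 239 to 52723, log2 change 8.86, SE 0.42, limma adjusted p = 1.98e-05). Ccn2, another YAP target, went the other way, with 0 reads in the MUT outgrowths, against 7.15, 21.6 and 16.7 FPKM in the MUT blastocysts, at least 5.72-fold lower (log2 change −3.89, SE 0.42, limma adjusted p = 0.000752). WT had 1.40 ± 0.869 FPKM in WT outgrowths and 1.68 ± 2.701 FPKM in WT blastocysts (difference −4.16, limma adjusted p = 0.00741). Among proteases that trophoblast uses to invade, Plau, urokinase, had 43.8, 13.2, 19.6 and 38.1 FPKM in the MUT outgrowths, against 0 reads in the MUT blastocysts (at least 113-fold higher, log2 change 4.74, SE 0.47, limma adjusted p = 0.000572). The cathepsins Ctsb and Ctsl rose 5.71-fold and 5.73-fold (limma adjusted p = 0.0114 and 0.00183). Ctsd, cathepsin D, had 966, 747, 955 and 762 FPKM in the MUT outgrowths, against 1737, 1724 and 1791 FPKM in the MUT blastocysts and fell (log2 change −1.04, SE 0.15, limma adjusted p = 0.00284). WT gave no call (log2 change in WT 0.25, limma adjusted p = 0.24, difference −1.27, limma adjusted p = 0.00499). Ctsc, cathepsin C, had 1407, 3041, 2622 and 4555 FPKM in the MUT outgrowths, against 580.0, 499.8 and 675 FPKM in the MUT blastocysts and rose (log2 change 2.20, SE 0.37, limma adjusted p = 0.00487, difference 2.84, limma adjusted p = 0.00421).

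Ribosomal protein genes were lower in mutant outgrowths, 59 of 82 tested with 0 that rose (median −0.80), against 41 of 83 that fell and 3 that rose in WT (median −0.39). The difference between the transitions was called lower in MUT for 16 of the 83 and higher for 1. The count of falls in MUT was 35 to 63 on leaving out 1 library, 35 without MUT blastocyst 3. Of 30 ribosome biogenesis genes 4 fell in MUT (nucleolin Ncl, fibrillarin Fbl, Nop10 and Mybbp1a) and 0 rose. The share that fell was near the 12% of all tested genes. In WT 13 rose and 1 fell, with a median of −0.20 in MUT and 0.47 in WT. The transitions were called different for 4 of the 30, all lower in MUT, against 4.1% of all tested genes. The MUT falls numbered 1 to 7 on leaving out 1 library (1 without MUT blastocyst 3, 7 without MUT blastocyst 1). Of 34 nuclear oxidative phosphorylation genes 3 fell and 0 rose. Targets of p53 gave 8 rises and 3 falls of 23 (WT 17 and 2 of 24), with Tigar, a regulator of glycolysis, at 39.9, 46.4, 29.8 and 29.1 FPKM in the MUT outgrowths, against 338, 651 and 716 FPKM in the MUT blastocysts (log2 change −3.89, SE 0.32, limma adjusted p = 0.00024). It also fell in WT (log2 change −3.82, difference −0.05, limma adjusted p = 0.944). Histone genes gave 6 rises and 5 falls of 18, among them H2bc4 at 1126, 762, 952 and 886 FPKM in the MUT outgrowths, against 61.5, 174 and 38.2 FPKM in the MUT blastocysts (log2 change 3.61, SE 0.47, limma adjusted p = 0.00175). Heat shock and chaperonin genes gave 2 rises and 5 falls of 17, with the small heat shock gene Hspb1 at 2182.1, 1282, 3392 and 2998 FPKM in the MUT outgrowths, against 79.1, 107 and 378 FPKM in the MUT blastocysts (log2 change 3.96, SE 0.57, limma adjusted p = 0.00271). Cholesterol genes gave 4 rises and 2 falls of 22, lysosomal genes 5 and 6 of 24, SAGA subunits 2 and 1 of 18, and polymerase II factors 2 and 5 of 29. Genes of DNA methylation gave 0 rises and 3 falls of 12, postimplantation epiblast genes 1 and 0 of 5, and mesoderm genes 2 and 1 of 4. Counts of 8 or fewer in this paragraph moved by over 1.5 times with 1 or more single libraries for p53, histone, heat shock, cholesterol, SAGA, polymerase II, oxidative phosphorylation and mesoderm genes.

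**Figure D5:**
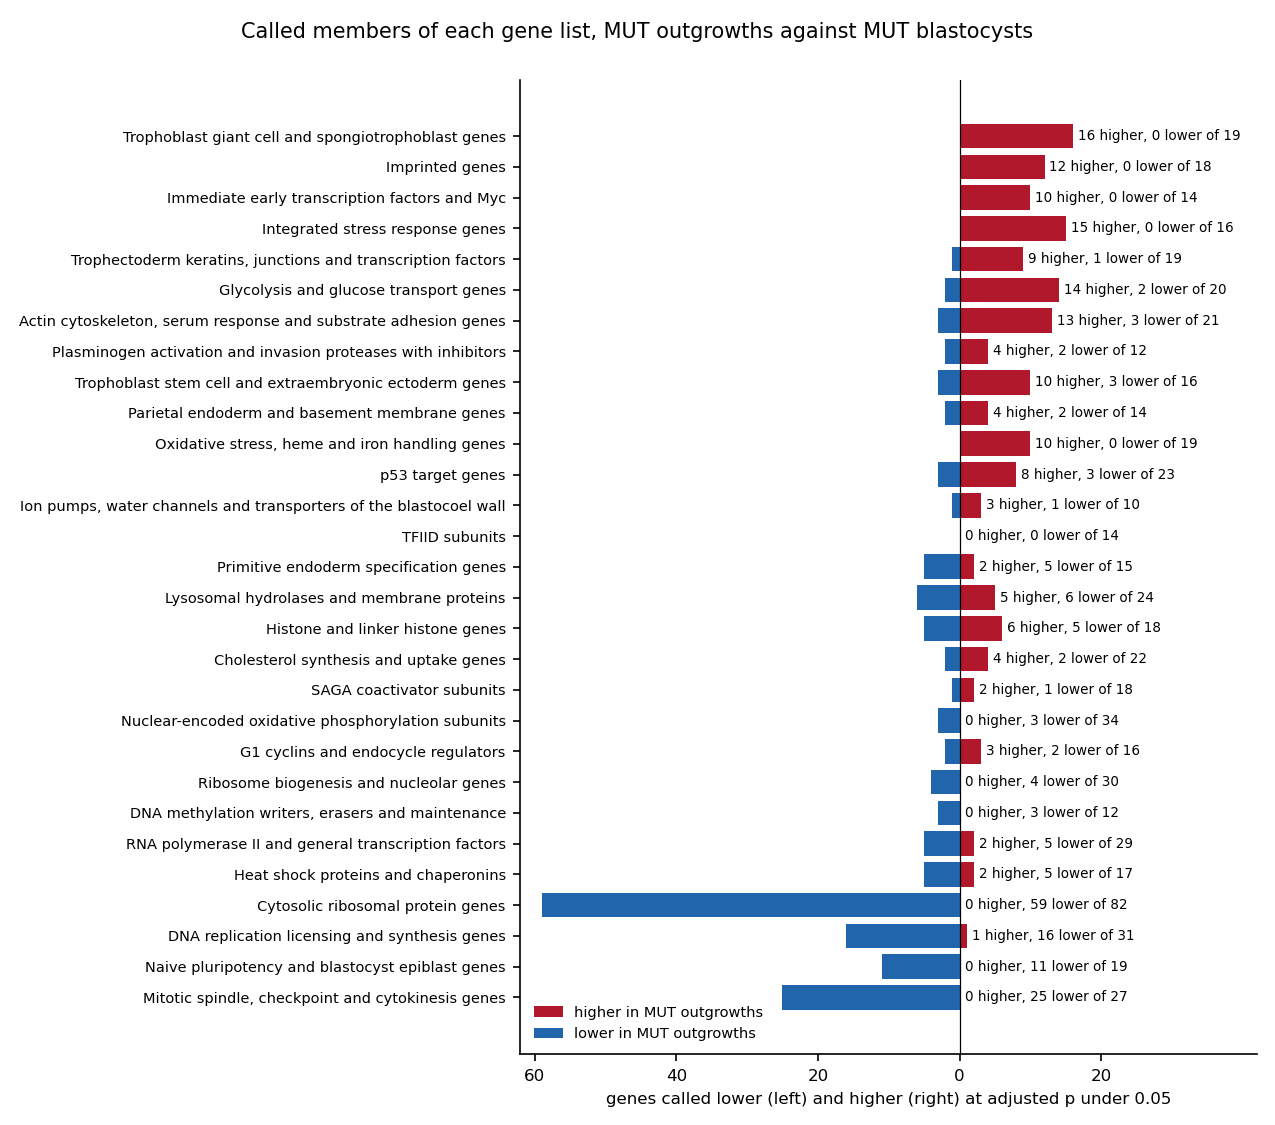
Number of genes called higher (red, right) and lower (blue, left) in MUT outgrowths against MUT blastocysts for each gene list with at least 10 tested members, ordered by the list's median change. Giant cell, imprinted and immediate early genes stand at the top (16, 12 and 10 higher), and replication, pluripotency and mitosis genes at the bottom (16, 11 and 25 lower).

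Among the genes that the naming rule admits, the largest differences between the transitions toward a higher change in mutants were, beside Atp12a, those of 5 genes. Snap91, a clathrin assembly protein best known from synapses, had 109, 788, 585 and 941 FPKM in the MUT outgrowths, against 0, 8.82 and 0 FPKM in the MUT blastocysts (206-fold higher, log2 change 7.77, SE 1.04, limma adjusted p = 0.00189). WT had 8.44 ± 9.49 FPKM in WT outgrowths and 47.7 ± 29.95 FPKM in WT blastocysts (difference 10.50, limma adjusted p = 0.000193). Adh1, an alcohol dehydrogenase, had 33.2, 501, 20.7 and 196 FPKM in the MUT outgrowths, against 0.867, 2.54 and 2.19 FPKM in the MUT blastocysts (log2 change 5.07, SE 1.07, limma adjusted p = 0.0118, lost with voom, adjusted p = 0.254). WT had 0.201 ± 0.367 FPKM in WT outgrowths and 37.0 ± 21.3 FPKM in WT blastocysts (difference 9.86, limma adjusted p = 0.000208). Trpv5, an epithelial calcium channel, had 90.0, 340.0, 326 and 989 FPKM in the MUT outgrowths, against 26.9, 17.1 and 6.31 FPKM in the MUT blastocysts (log2 change 4.36, SE 0.80, limma adjusted p = 0.00686, lost with voom, adjusted p = 0.083). WT had 7.79 ± 15.5 FPKM in WT outgrowths and 47.4 ± 32.5 FPKM in WT blastocysts (difference 8.43, limma adjusted p = 0.00314). For all 3 genes each MUT outgrowth was above each MUT blastocyst, and WT fell. Slc6a14, an amino acid transporter, had 278, 719, 566 and 983 FPKM in the MUT outgrowths, against 29.97, 9.59 and 0 FPKM in the MUT blastocysts (log2 change 6.39, SE 1.08, limma adjusted p = 0.00504). WT had 17.5 ± 21.6 FPKM in WT outgrowths and 27.3 ± 12.1 FPKM in WT blastocysts (difference 8.33, limma adjusted p = 0.0068). Slc2a12, a glucose transporter, had 34.4, 46.8, 19.2 and 25.5 FPKM in the MUT outgrowths, against 88.6, 0.873 and 0 FPKM in the MUT blastocysts, with blastocyst 1 above every outgrowth and no call in MUT (limma adjusted p = 0.226). Without that blastocyst a rise was called (log2 change 4.46, adjusted p = 0.00158). WT had 3.17 ± 4.29 FPKM in WT outgrowths and 156 ± 64.1 FPKM in WT blastocysts (difference 8.30, limma adjusted p = 0.00596).

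In the other direction, apart from Cts7 and Cyp26a1, stood 4 genes that rose in WT. Ceacam15, of the carcinoembryonic antigen family, averaged 3.19 ± 3.42 FPKM in MUT outgrowths and 0 reads in MUT blastocysts, against 2281 ± 568 FPKM in WT outgrowths and 0 reads in WT blastocysts (MUT minus WT difference −9.49, SE 0.68, limma adjusted p = 1.85e-06). Tfpi2, an inhibitor of serine proteases made by trophoblast, averaged 6.504 ± 12.5 FPKM in MUT outgrowths and 0 reads in MUT blastocysts, against 644 ± 262 FPKM in WT outgrowths and 0 reads in WT blastocysts (MUT minus WT difference −7.87, SE 1.10, limma adjusted p = 0.000644). Tfr2, the second transferrin receptor, had 3.49, 0, 0 and 0 FPKM in the MUT outgrowths, against 1.34, 0 and 58.5 FPKM in the MUT blastocysts. WT had 52.6 ± 26.2 FPKM in WT outgrowths and 0 reads in WT blastocysts (difference −7.43, limma adjusted p = 0.00394). Pxylp1, a phosphatase of proteoglycan synthesis, averaged 0.122 ± 0.245 FPKM in MUT outgrowths and 1.17 ± 2.03 FPKM in MUT blastocysts, against 293 ± 115 FPKM in WT outgrowths and 3.17 ± 4.59 FPKM in WT blastocysts (MUT minus WT difference −7.27, SE 1.03, limma adjusted p = 0.000725). In every MUT outgrowth these 4 genes were below the lowest WT outgrowth. Ceacam15 and Tfpi2 passed the filter through WT outgrowths and not in the MUT libraries, which all but fixed the direction of their differences.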

How the data were processed

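Single mouse embryos had been sequenced as paired ends on a NextSeq 500 after low-input library preparation, per the labels' protocols. The authors deposited FPKM per gene and embryo, normalized separately by stage; Trimmomatic 0.39, FastQC 0.11.9, STAR 2.7.6a, R 4.2.1, DESeq2 1.36.0 and the build GRCm39 are named in the submitters' processing notes, without their roles; no source used here gives the read counter or whether it used strand. To recover read numbers, 1 read of a gene was taken as the largest step that made its FPKM whole multiples, within 0.05 reads, in all libraries. All genes had such a step, and 100% of values were whole by that choice. For genes seen in few libraries this checks nothing, and their read numbers could be too low. The depths given are sums of recovered reads.

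FPKM of the 7 MUT libraries, or of 16 MUT and WT libraries for genotype differences, were rescaled together by median-of-ratios. Genes at FPKM 1 or more in at least 3 libraries were tested on log2(FPKM + 1) with limma 3.58.1 (trend and robust moderation, R 4.3.3), with p-values adjusted by Benjamini and Hochberg over all tested genes. The script was tested on simulated data. Named genes were Taf12, Taf5 and Taf13, the 10 largest rises and falls without overlap, the 6 largest genotype differences per direction and up to 4 members per list with the smallest p. Members and lists were chosen with earlier results of these data known, and 47 genes beside this rule were named after their values were seen (Prl5a1, Cts8, Car2, Mdfi, Krt8, Gata2, Gata3, Cdx2, Ets2, Esrrb, Satb1, Pou5f1, Dppa5a, Tbx3, Dppa2, Zfp42, Ttr, Spink1, Soat2, Apom, Trf, Foxa2, Gata4, Fst, Ccnb1, Aurka, Aurkb, Top2a, Plk1, Incenp, Bub1b, Prim1, Rfc5, Slc2a1, Eno1, Pkm, Pgk1, Pgam1, Pfkl, Mthfd2, Pck2, Fos, Igf2, Gclc, Itga7, Ccn2 and Ctsc). Some genes are not reported here. Promoters were matched by symbol to RefSeq. Replicate numbers do not pair the embryos, which differ between stages.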

Additional observations from a re-analysis of the deposited data

Results flagged for a closer look

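In 16 of 122 groups of 4 MUT outgrowths looked at, 1 library of a named gene lay apart from the other 3 by Dixon's criterion, where chance sets apart about 1 in 20 groups. MUT outgrowth 1 stood above the other outgrowths with 0.154 FPKM for Nanog and 3.49 FPKM for Tfr2. MUT outgrowth 1 stood below the other outgrowths with 3.00 FPKM for Pck2. MUT outgrowth 2 stood above the other outgrowths with 0.849 FPKM for Lama3, 6.53 FPKM for Slc6a13, 1.32 FPKM for Spic and 10.1 FPKM for Lrp2. MUT outgrowth 2 stood below the other outgrowths with 1105 FPKM for Prl3d2, 11.9 FPKM for Plk1, 429 FPKM for H19, 157 FPKM for Itgb3 and 125 FPKM for Itga7. MUT outgrowth 3 stood above the other outgrowths with 10.1 FPKM for Apoa1. MUT outgrowth 3 stood below the other outgrowths with 126 FPKM for Prl5a1. MUT outgrowth 4 stood above the other outgrowths with 207 FPKM for Ankle1. MUT outgrowth 4 stood below the other outgrowths with 5361 FPKM for Ftl1. Outgrowth 2 gave 9 of the 16. For 6 of the 16 (Nanog, Tfr2, Lama3, Slc6a13, Spic and Ankle1) the other 3 outgrowths had 0 reads, so that any read meets the criterion whatever its level and the chance rate says nothing about them. For Ftl1 the other 3 lay close together at 6423 to 6542 FPKM, and the gap was small. The causes were not tested.

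The change from blastocyst to outgrowth differed between MUT and WT for 62 of the 139 genes whose values the text gives, by limma's test of the MUT minus WT difference of the log2 change at an adjusted p under 0.05. Many of these genes were named because of such a difference. Among giant cell genes, the difference was −3.93 for Prl5a1, −9.51 for Cts7, −3.27 for Cts8, −4.26 for Car2, 3.17 for Prl2c5 and 6.37 for Ctsll3. Among trophectoderm and blastocoel genes, the difference was 2.497 for Krt8, 1.87 for Krt18, 8.22 for Atp12a and 4.62 for Aqp9. Among pluripotency, maternal and one-carbon genes, the difference was 3.42 for Dppa3, 3.43 for Dppa5a, 4.00 for Khdc3, −3.04 for Nlrp14, −6.54 for Ankle1 and −5.80 for Gldc. Among endoderm genes, the difference was −4.41 for Ttr, −3.84 for Spink1, −2.98 for Soat2, −5.24 for Apom, −2.77 for Trf, −3.18 for Apoe, −5.42 for Amn, −4.88 for Cited1, −1.73 for Foxa2, −2.699 for Fst and −6.96 for Cyp26a1. Among mitosis and replication genes, the difference was −2.83 for Ccnb1, −1.85 for Aurka, −3.27 for Aurkb, −2.31 for Birc5, −1.70 for Cenpa, −2.41 for Kif20a, −3.44 for Top2a, −3.09 for Plk1, −2.98 for Tk1 and −1.60 for Rfc5. Among glycolysis genes, the difference was −1.73 for Eno1, −2.60 for Pkm, −1.499 for Pgk1, −1.10 for Pgam1 and −2.19 for Pfkl. Among immediate early, imprinted and iron genes, the difference was 3.69 for Myc, 2.34 for Klf6, 5.08 for Peg10, 3.69 for Phlda2, 2.22 for Hmox1, 1.64 for Ftl1 and 4.70 for Slc40a1. Among adhesion and protease genes, the difference was −4.23 for Itga7, −4.16 for Ccn2, 2.84 for Ctsc and −1.27 for Ctsd. Among the genes with the largest differences, the difference was 10.50 for Snap91, 9.86 for Adh1, 8.43 for Trpv5, 8.33 for Slc6a14, 8.30 for Slc2a12, −9.49 for Ceacam15, −7.87 for Tfpi2, −7.43 for Tfr2 and −7.27 for Pxylp1.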

How the results depend on the processing

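No called change or difference changed sign in any of these settings. Of the changes and differences that were not called, 5 of 15 and 20 of 77 took both signs across settings, and 4 and 24 were called in 1 or more. Of the 112 called changes of named genes in MUT, 17 were lost in 1 or more of 18 other settings. The other 95 held in every setting that tested them. Among these, Nanog, Tdgf1, Esrrb, Lama3, Dmgdh, Nlrp14, Cited1 and Ccn2 were tested in 14 settings and Car2 in 17. In the rest they failed the filter on low values. Of the 62 called differences between the genotypes, 24 held in all 27 other settings and 38 were lost in 1 or more. Leaving out 1 library gave 1634 to 2129 genes higher and 884 to 1443 lower in MUT (893 lower without MUT blastocyst 2 and 884 without MUT blastocyst 3). In WT it gave 2620 to 3398 higher and 1909 to 2499 lower, and for the difference 417 to 693 higher and 416 to 681 lower (417 higher without WT outgrowth 4). Pooling HET with WT embryos gave 1349 genes with a higher and 1198 with a lower change in MUT. Without both MUT outgrowth 3 and MUT blastocyst 1, a setting chosen after the data were seen, the difference was called for 615 genes as higher and 604 as lower.

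The replicate block, which treats embryos of the same number as pairs, gave 1197 genes higher and 612 lower in MUT, 158 with a higher and 156 with a lower change in MUT than in WT, and cost 10 of the named changes and 31 of the named differences. Embryos with the same number did not deviate together (r of −0.05, 0.02 and 0.02 across genes for outgrowths and blastocysts 1, 2 and 3), and MUT outgrowth 4 has no partner.

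A smaller pseudocount of 0.1 cost 4 named changes and 8 named differences, and voom on recovered reads 3 and 10. The differences lost with 0.1 were those of Prl2c5, Ctsll3, Ankle1, Gldc, Foxa2, Cyp26a1, Peg10 and Itga7 (adjusted p = 0.0513 to 0.116), and those lost with 5 were Dppa3, Khdc3 and Trf. No filter beyond a value above 0 in 3 libraries cost 4 changes and 6 differences, FPKM as deposited or rescaled by the 75th percentile 1 change each, that of Atp1b1, and limma without trend and robust moderation 3 changes. With 3 MUT blastocysts and MUT outgrowth 3 at 4.57 M reads, precision is lowest for genes with few reads, and a gene at 0 reads was not detectable at this depth rather than absent.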
